A study of Bos taurus with 32 samples.

Results

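The liver of 6 Ayrshire dairy cows was followed from 1 d to 9 d after calving, the first days of lactation. These cows belonged to the HIGH group, which had received a high-energy diet for the 6 weeks before the predicted calving. The 12 arrays described here, 6 at 1 d and 6 at 9 d, were chosen by their group and day labels out of 32 arrays in all, and every cow contributed 1 array on each day. For reference, 5 of the same cows had an array at -8 d, that is 8 d before the predicted calving. The CON group, fed a controlled-energy diet over the same 6 weeks, gave 4 cows with arrays at both 1 d and 9 d. Each array holds the RNA of 3 to 5 mg of liver taken by biopsy. The labels give no genotype beyond the breed, no age, no parity, no health record and no diet after calving. A 9 d sample therefore differs from a 1 d sample in days since calving, in lactation and in any feeding change between the days. Any difference in array handling between the days, which the labels do not give, comes on top. These cannot be told apart here. The design text speaks of 16 cows, of which 12 are represented by arrays analysed here.

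Around calving the cow's liver meets several demands at once. Glucose is needed for milk and is made in the liver, largely from propionate and amino acids, while body fat is released as fatty acids that the liver oxidises, turns into ketone bodies or stores. Calving is also followed by an acute phase response, in which hepatocytes secrete large amounts of defence proteins such as haptoglobin and serum amyloid A through the endoplasmic reticulum. Setting 9 d against 1 d addresses how far these programmes had moved by the second week of lactation.

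Values are log2 expression levels per probe set. A difference of 1 is therefore a change of 2-fold, and a level of 1 gene cannot be set against that of another. Changes are 9 d minus 1 d, averaged over the 6 cows, with the standard error (SE) of the paired limma fit. A change was called where its p, adjusted over 24016 probe sets by the Benjamini-Hochberg method, was under 0.05. The 24016 probe sets named 9155 genes, and each gene was read from 1 probe set. The hepatocyte marker list had a mean level of 13.4 ± 0.04 (SD, n = 6) at 1 d and 13.3 ± 0.04 at 9 d, where the table's values reach 15. The 32 arrays correlated at 0.981 to 0.994 with each other. In bulk tissue, fewer cells of a type and less RNA per cell cannot be told apart. Some control probe sets for the 3′ and 5′ ends of a transcript differed between the days. The 3′ minus 5′ difference of the bovine elongation factor control was -1.0 ± 0.1 (SD, n = 6) at 1 d and -0.81 ± 0.11 at 9 d. That of the spiked-in BioB control was 0.46 ± 0.06 and 0.27 ± 0.09, without overlap. That of BioC ran the other way, with means of 0.42 and 0.52, also without overlap. In the CON arrays the means at 1 d and 9 d were 0.39 and 0.27 for BioB, and 0.40 and 0.55 for BioC. Actin and GAPDH controls had day means of 1.59 and 1.56, and of 0.57 and 0.59. The part of these differences in the results was not tested.

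From 1 d to 9 d, 1523 of 24016 probe sets changed (6.34%), 704 upward (2.93%) and 819 downward (3.41%). Over genes, 801 of 9155 were called (8.75%), 369 higher at 9 d (4.03%) and 432 lower (4.72%). Without cow 529 the number of probe sets fell to 916, and with any other cow left out it was 1066 to 1287. Of the 1523, 1350 moved the same way in all 6 cows, and 255 rose and 299 fell by at least 1.5-fold. The 6 values at 9 d lay wholly outside the range of the 6 values at 1 d in 567 called probe sets, and in 733 of all probe sets (3.05%). The median change of all probe sets was 0.0017, which a normalization to 1 shared distribution holds near 0, so a general shift could not be seen. The genes with the deepest falls were the secreted peroxidase GPX3 and metallothionein, serum amyloid A and interferon-response genes. The steepest rises were in genes of cell division, fatty acid desaturation and the pantetheinase VNN1. Gene groups are described below by how many of their measured members passed the test, beside those shares of all genes.

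**Figure D1:**
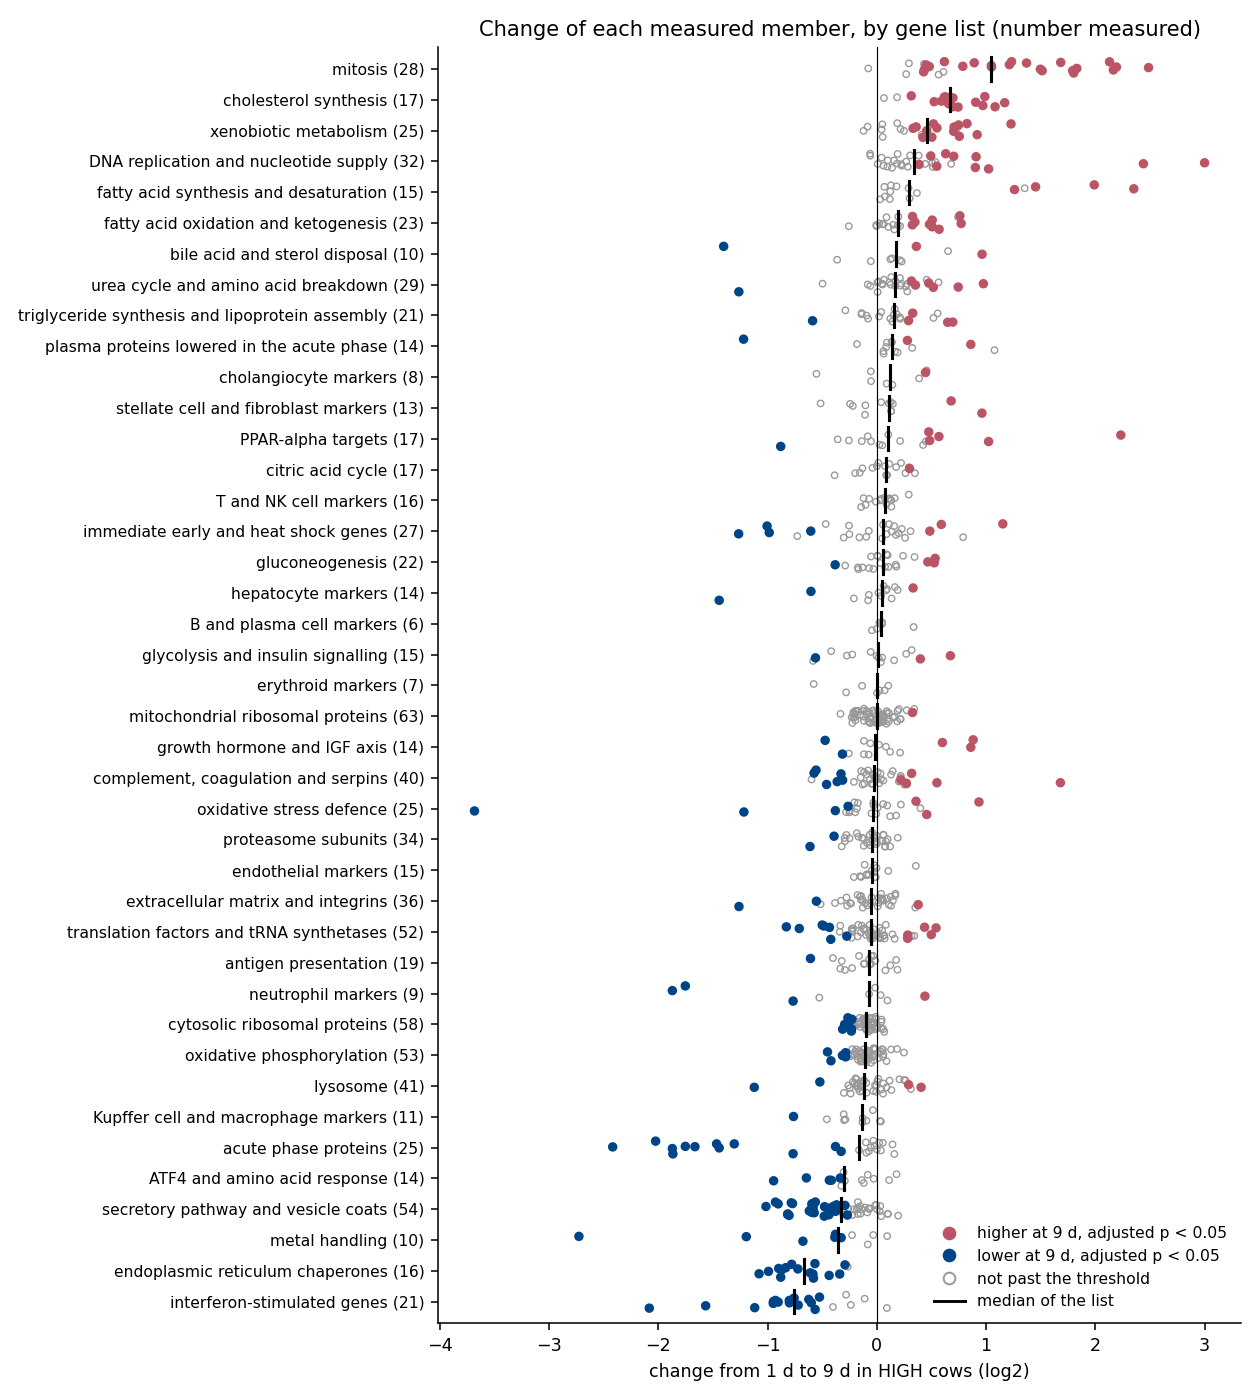
Change from 1 d to 9 d (horizontal axis, log2) of every measured member of 41 gene lists (rows, ordered by median). Filled points passed adjusted p under 0.05, red higher and blue lower at 9 d, open points did not, and a black bar marks the list's median. The interferon and endoplasmic reticulum chaperone lists lie lowest, with medians of -0.76 and -0.67, and the mitosis list highest, at 1.05.

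Many acute phase proteins fell between the days. Of 25 measured genes of this list, 12 fell and 0 rose, against 4.72% of all genes that fell, and the list's median change was -0.16. The other 13 had changes between -0.16 and 0.16. Haptoglobin (HP), which binds free haemoglobin, ranged from 14.78 to 14.95 (median 14.88) at 1 d and from 11.17 to 14.10 (median 13.47) at 9 d. The 1 d values sat within 0.17 of each other near the top of the table's scale, and the 9 d values spread over 2.93, all at least 0.68 below them. HP changed by -1.87 ± 0.30 (SE, adjusted p = 0.00395), and with 1 d values so near the top of the scale this may understate the fall. SAA3, a serum amyloid A of inflamed tissue, ranged from 10.50 to 13.34 (median 11.05) at 1 d and from 8.14 to 9.46 (median 8.86) at 9 d, and again no cow at 9 d reached the lowest 1 d value. Its change was -2.42 ± 0.21 (SE, adjusted p = 0.000168), with -3.88 to -1.82 in single cows. SAA4, the constitutive serum amyloid A, changed by -2.02 ± 0.13 (SE, adjusted p = 2.81e-05) and LBP, which carries bacterial lipopolysaccharide, by -1.67 ± 0.13 (SE, adjusted p = 7.82e-05). ITIH4, an inter-alpha-trypsin inhibitor heavy chain, had the smallest SE of these genes. It ranged from 13.97 to 14.34 (median 14.20) at 1 d and from 12.65 to 12.77 (median 12.68) at 9 d, so that its 6 values at 9 d lay within 0.12. Its change of -1.47 ± 0.06 (SE, adjusted p = 9.66e-07) came from within-cow changes of -1.69 to -1.28. FGB, the fibrinogen beta chain, changed by -1.44 ± 0.14 (SE, adjusted p = 0.000251), although its other probe set gave 0.05. The calcium-binding S100A8, a neutrophil gene also counted among acute phase genes, fell by 1.75 (adjusted p = 0.0089), from a 1 d range of 8.33 to 11.50 to a 9 d range of 7.25 to 8.42, which overlapped. Its partners S100A12 (change -1.87, adjusted p = 0.029) and S100A9 (-0.77, adjusted p = 0.0226) fell too. S100A12 lost its call without cow 432 (0.0789) or cow 529 (0.0647), and S100A9 without cow 432 (0.0666) or cow 529 (0.0538), these being adjusted p. Their falls were largest in cows 432 and 529, with -3.62 and -4.25 for S100A12. The mean change of the 9 measured neutrophil markers there was -1.02 and -1.03. S100A8, S100A9 and S100A12 are themselves among the 9, so this mean partly restates their falls. The mean of the other markers was not computed, and the part of neutrophils in these falls was not tested. The whole neutrophil list had 3 members lower and 1 higher of 9, with 2 called in all without cow 432 or without cow 529, a median change of -0.07, and list means of 5.89 to 6.84 over the 1 d arrays and 5.46 to 6.08 over the 9 d arrays.

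Metal-binding and antioxidant genes held the deepest falls of the whole comparison. Metallothionein MT1A, a cysteine-rich protein that binds zinc and copper, ranged from 11.60 to 13.09 (median 12.62) at 1 d and from 9.03 to 10.37 (median 9.73) at 9 d. The highest 9 d value lay 1.23 below the lowest 1 d value, and the change was -2.73 ± 0.22 (SE, adjusted p = 9.82e-05). LOC613358 is a locus for which RefSeq lists MT1E as a synonym. Under its locus name it was in none of the lists, although MT1E belongs to the metal handling list. It ranged from 11.93 to 13.95 (median 13.11) at 1 d and from 9.47 to 10.99 (median 10.47) at 9 d and changed by -2.82 ± 0.26 (SE, adjusted p = 0.000225). Metallothioneins are near-identical copies of each other, so their probe sets may share signal. In the list of metal handling, 6 of 10 measured genes fell and 0 rose. The transferrin receptor TFRC, which takes up iron, changed by -0.68 ± 0.09 (SE, adjusted p = 0.00196), the zinc importer SLC39A14 by -0.39 ± 0.07 (SE, adjusted p = 0.00668) and the copper-carrying plasma ferroxidase CP by -0.33 ± 0.05 (SE, adjusted p = 0.00301). GPX3, the secreted glutathione peroxidase of plasma, had the lowest adjusted p of all probe sets. It ranged from 8.42 to 9.88 (median 8.89) at 1 d and from 4.64 to 6.16 (median 5.46) at 9 d. The highest 9 d value lay 2.26 below the lowest 1 d value, and the change was -3.68 ± 0.13 (SE, adjusted p = 1.97e-07), a fall of 12.8-fold. Within cows it was -4.22 to -3.15. The wider list of oxidative stress defence had 4 members lower and 3 higher of 25, a median of -0.03, and 4 called in all without cow 439 or without cow 462. PRDX4, the peroxiredoxin of the endoplasmic reticulum, changed by -1.22 ± 0.09 (SE, adjusted p = 7.35e-05), while the extracellular superoxide dismutase SOD3 rose by 0.94 (adjusted p = 0.00293) and PRDX6 by 0.46 (adjusted p = 0.00673).

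The machinery that folds and exports secreted proteins was lower at 9 d. All 16 measured endoplasmic reticulum chaperones had a negative change, with a median of -0.67. Of these 15 were called. The number was 11 without cow 529, 12 without cow 462, and 12 in a fit that does not pair the arrays by cow. Of the 16 endoplasmic reticulum chaperones, 11 had no overlap between the days (4.58% of all genes had none). HSPA5, the main chaperone of this compartment, ranged from 12.78 to 13.33 (median 13.02) at 1 d and from 12.16 to 12.63 (median 12.54) at 9 d and changed by -0.57 ± 0.08 (SE, adjusted p = 0.00274). Calreticulin (CALR), a lectin chaperone, ranged from 11.13 to 12.15 (median 12) at 1 d and from 10.41 to 10.94 (median 10.80) at 9 d. No 9 d value reached a 1 d value, and its change was -1.08 ± 0.13 (SE, adjusted p = 0.00118). The disulfide isomerases PDIA3 and PDIA4 changed by -0.87 ± 0.09 (SE, adjusted p = 0.000397) and -0.99 ± 0.13 (SE, adjusted p = 0.00152), and SEL1L, an adaptor of the pathway that removes misfolded proteins, by -0.78 ± 0.08 (SE, adjusted p = 0.000252). In the list of the secretory pathway and vesicle coats, 28 of 54 genes fell and 0 rose, with a median of -0.33. The count was 18 without cow 529, and 17 in a fit that does not pair the arrays by cow. SEC11C, of the signal peptidase complex, ranged from 11.67 to 12.24 (median 12) at 1 d and from 11 to 11.16 (median 11.10) at 9 d and changed by -0.90 ± 0.08 (SE, adjusted p = 0.000225). RPN2, a subunit of the oligosaccharyltransferase that attaches sugars to new proteins, changed by -0.82 ± 0.08 (SE, adjusted p = 0.000225), and its catalytic partner STT3B, in none of the lists, by -1.16 ± 0.10 (SE, adjusted p = 0.000178). SSR3, a subunit of the translocon-associated complex, changed by -0.77 ± 0.11 (SE, adjusted p = 0.00207) and the cargo lectin LMAN2 by -0.48 ± 0.06 (SE, adjusted p = 0.0014). Among the 10 unlisted genes with the largest test statistics, 3 further proteins of this compartment also fell, the prolyl isomerases FKBP11 (-1.29, adjusted p = 0.000225) and FKBP7 (-1.24, adjusted p = 0.000163) and the glycan-binding MLEC (-0.96, adjusted p = 0.000252). NUCB2, a calcium-binding protein, was among the 15 largest falls. It ranged from 10.02 to 11.35 (median 10.79) at 1 d and from 8.23 to 9.10 (median 8.99) at 9 d, without overlap, and changed by -1.90 ± 0.15 (SE, adjusted p = 7.82e-05).

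Of 21 measured interferon-stimulated genes, 20 had a negative change, and 6 of the 21 did not pass the test. The 15 that passed the test were all lower at 9 d, and the median change was -0.76. The number that passed was 12 without cow 432, 12 without cow 529, and 12 in a fit that does not pair the arrays by cow. ISG15, a ubiquitin-like protein that interferons induce strongly, ranged from 9.24 to 11.26 (median 10.66) at 1 d and from 7.59 to 9.20 (median 8.31) at 9 d. Those ranges did not overlap, yet the cows differed widely, with within-cow changes from -3.27 in cow 529 to -0.23 in cow 462. The mean change was -2.08 ± 0.34 (SE, adjusted p = 0.00479). IFI44L, EPSTI1 and IFIT5 changed by -0.95 ± 0.14 (SE, adjusted p = 0.00326), -0.80 ± 0.13 (SE, adjusted p = 0.00383) and -0.60 ± 0.10 (SE, adjusted p = 0.00428). Over the list, the mean change per cow ran from -1.27 in cow 432 to -0.09 in cow 462. Antigen presentation genes, which partly answer to the same signals, had 1 of 19 members called. It was lower at 9 d, a share of 5.26%, near the 4.72% of all genes that fell. That gene, PSMB10, is an immunoproteasome subunit and changed by -0.61 ± 0.13 (SE, adjusted p = 0.015). The peptide transporters TAP1 and TAP2 were at -0.40, adjusted p = 0.201 and -0.23, adjusted p = 0.177.

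Stress-response genes downstream of ATF4, a transcription factor raised by amino acid shortage and misfolded protein, were lower in part. In this list 5 of 14 fell and 0 rose, with a median of -0.30. The number of calls was 1 without cow 462, 1 without cow 529, and 3 without cow 439 or cow 460. The amino acid transporter SLC38A2 kept its call in every such fit and changed by -0.94 ± 0.16 (SE, adjusted p = 0.00548). ATF4 itself ranged from 10.23 to 11.74 (median 11.21) at 1 d and from 10.07 to 10.91 (median 10.41) at 9 d, the ranges overlapping, and changed by -0.65, adjusted p = 0.0211. Its adjusted p rose above the threshold without cow 460 (0.0616), cow 462 (0.073) or cow 529 (0.0709). The serine synthesis enzyme PHGDH (-0.43, adjusted p = 0.018) lost its call without cow 462 (0.052) or cow 529 (0.0519). CHAC1, a glutathione-degrading enzyme (-0.34, adjusted p = 0.0355), lost it without cow 432 (0.0859), cow 439 (0.0807), cow 460 (0.0603), cow 462 (0.0987) or cow 529 (0.0958). Immediate early and heat shock genes moved both ways. In this list 4 fell and 3 rose of 27, with 3 lower and 0 higher without cow 439 or without cow 462, and 4 called in all without cow 529. BHLHE40, a transcriptional repressor of the circadian clock, ranged from 8.37 to 9.31 (median 8.79) at 1 d and from 7.12 to 8.29 (median 7.89) at 9 d, without overlap, and changed by -1.0 ± 0.16 (SE, adjusted p = 0.00395). KLF10 changed by -0.98 ± 0.14 (SE, adjusted p = 0.00239) and EGR1 by -1.26 ± 0.25 (SE, adjusted p = 0.0129), and JUNB fell by 0.60, while MYC rose by 1.15 and JUN by 0.48, these 3 being named after their values were seen. JUNB was no longer called without cow 512, 439, 462 or 529, MYC without cow 432, 439, 460, 462 or 529, and JUN without cow 439, 460 or 462. The heat shock protein HSPA1A rose by 0.59 (adjusted p = 0.0216), a call lost without cow 439 (0.0647), cow 462 (0.0729) or cow 529 (0.0752), and of its 6 probe sets 3 passed the test upward while another 2 gave -0.25 and -0.02.

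**Figure D2:**
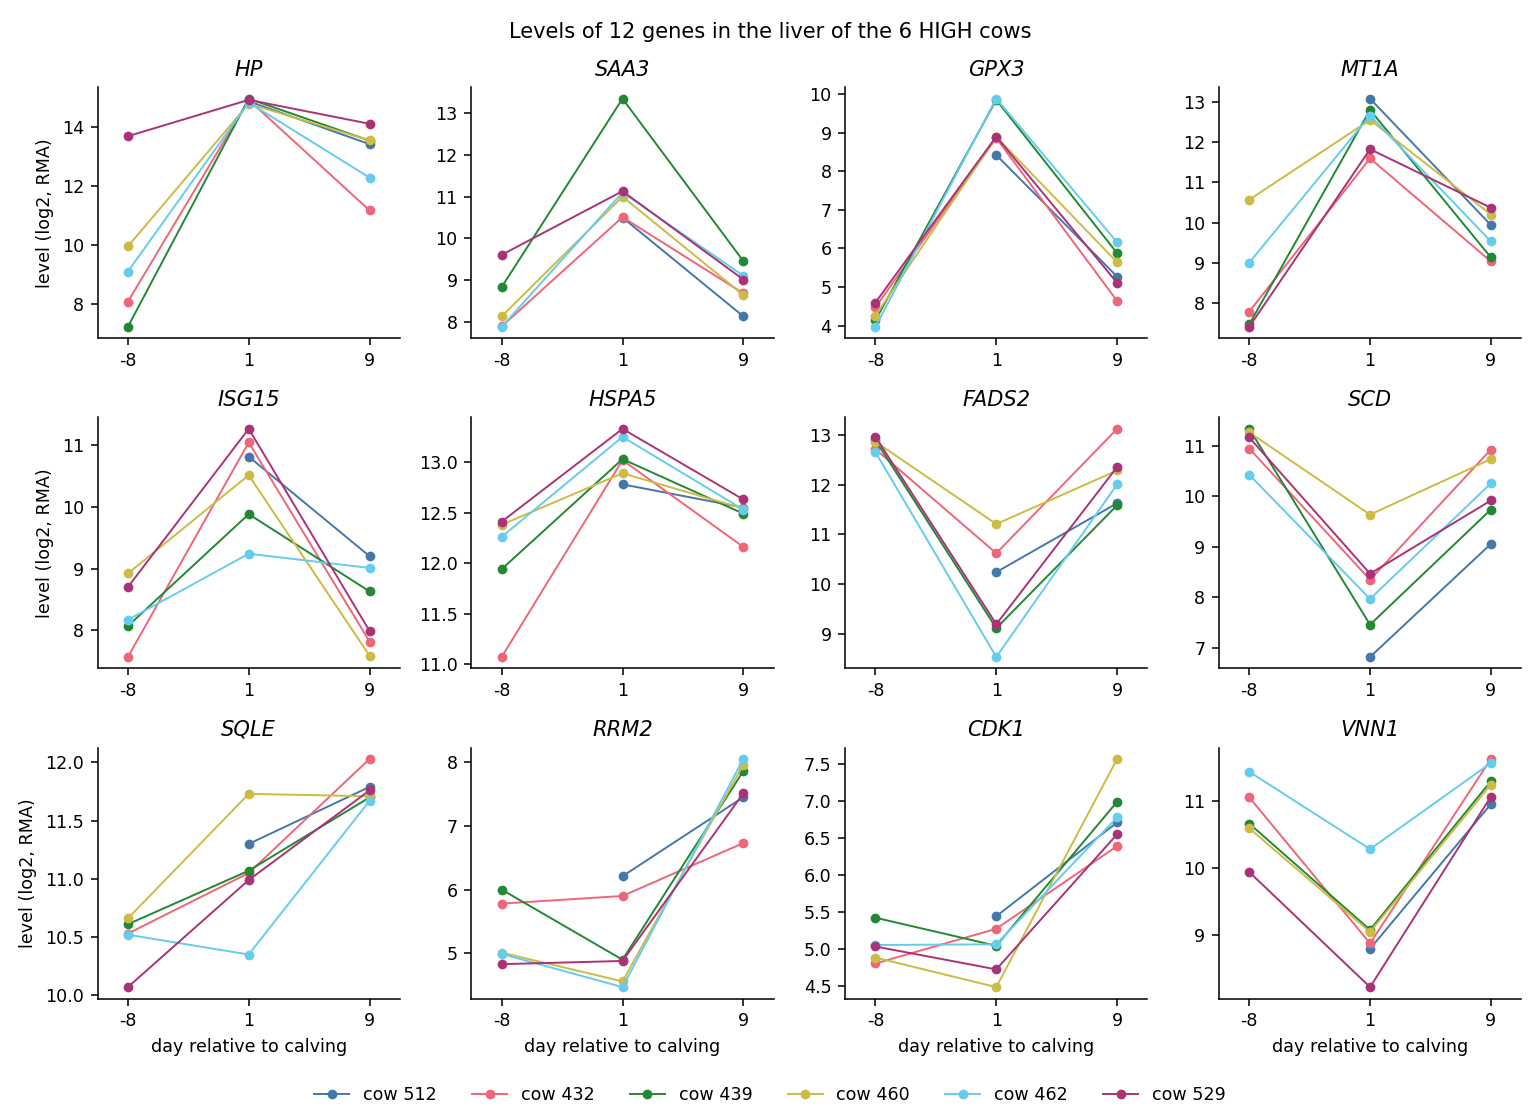
Levels (vertical axes, log2, each panel with its own scale) of 12 genes in the liver of each HIGH cow on 3 days (-8 d, 1 d, 9 d, counted from calving). Each line is 1 cow, and cow 512 has no array at -8 d. HP, SAA3, GPX3, MT1A, ISG15 and HSPA5 peak at 1 d, FADS2, SCD and VNN1 are lowest there, and RRM2 and CDK1 are highest at 9 d, all by the mean of the cows.

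Genes of cell division had the highest median change of the 41 lists. In the mitosis list 22 of 28 measured genes rose, against 4.03% of all genes, and 0 fell. The median change was 1.05, and 20 of the 28 had no overlap between the days. CDK1, the kinase that drives entry into mitosis, ranged from 4.48 to 5.44 (median 5.05) at 1 d and from 6.39 to 7.57 (median 6.75) at 9 d. The lowest 9 d value lay 0.95 above the highest 1 d value, and the change was 1.83 ± 0.20 (SE, adjusted p = 0.000626). CKAP2, a spindle protein, ranged from 4.70 to 6.27 (median 5.72) at 1 d and from 7.56 to 9.10 (median 8.20) at 9 d and changed by 2.49 ± 0.27 (SE, adjusted p = 0.000606). UBE2C, the conjugating enzyme that marks mitotic cyclins for destruction, changed by 2.19 ± 0.26 (SE, adjusted p = 0.000872). BIRC5 (survivin), part of the chromosome passenger complex, changed by 2.13 ± 0.18 (SE, adjusted p = 0.000153). Among the 15 largest rises were also the microtubule regulator STMN1 (2.17, adjusted p = 0.00274), the cytokinesis factor ECT2 (1.80, adjusted p = 0.00126), the spindle protein NUSAP1 (1.79, adjusted p = 0.00263), the checkpoint kinase BUB1 (1.68, adjusted p = 0.00119) and SHCBP1 (1.67, adjusted p = 0.00133). The rise was larger in cow 460 than in the other cows, with a list mean of 2.02 against 0.665 to 1.16, and without that cow 20 of 28 members were called.

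DNA replication and nucleotide supply rose in fewer members. Of 32 genes, 10 rose and 0 fell, with a median of 0.34. The count was 5 without cow 460, 6 without cow 462 or cow 529, 7 without cow 432 or cow 439, and 14 without cow 512. It was 6 in a fit that does not pair the arrays by cow. The mean change of the list was 0.0025 in cow 512 and 0.27 to 1.01 in the other cows. PCLAF, which binds the replication clamp PCNA, had the largest rise of all genes. It ranged from 4.24 to 5.96 (median 5.0) at 1 d and from 7.08 to 9.0 (median 8.09) at 9 d and changed by 3.0 ± 0.33 (SE, adjusted p = 0.000617), a rise of 8-fold. RRM2, the regulated subunit of ribonucleotide reductase, ranged from 4.47 to 6.21 (median 4.89) at 1 d and from 6.73 to 8.05 (median 7.68) at 9 d. Cow 432 had the smallest rise of both genes, 1.24 and 0.83. RRM2 changed by 2.44 ± 0.32 (SE, adjusted p = 0.00152), DUT, which removes dUTP, by 1.02 ± 0.17 (SE, adjusted p = 0.0056) and CDC45, of the replicative helicase, by 0.55 ± 0.10 (SE, adjusted p = 0.00843).

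All 15 measured genes of fatty acid synthesis and desaturation had positive changes, and 4 of them rose past the threshold, with a median of 0.29. FADS2, the delta-6 desaturase of polyunsaturated fatty acids, ranged from 8.53 to 11.21 (median 9.71) at 1 d and from 11.59 to 13.13 (median 12.15) at 9 d. Its ranges did not overlap, and the change was 2.35 ± 0.26 (SE, adjusted p = 0.00063), with 1.08 to 3.48 in single cows. SCD, which makes oleic from stearic acid, ranged from 6.82 to 9.64 (median 8.16) at 1 d and from 9.06 to 10.93 (median 10.09) at 9 d. Here the ranges overlapped, cow 460 having the highest 1 d value, but within each cow the level rose, by 1.1 to 2.58, and the change was 1.99 ± 0.17 (SE, adjusted p = 0.000153). ACSS2, which activates acetate, the main carbon source of lipid synthesis in ruminants, changed by 1.45 ± 0.20 (SE, adjusted p = 0.00192). Fatty acid synthase (FASN) ranged from 7.18 to 8.47 (median 7.43) at 1 d and from 8.43 to 9.54 (median 8.81) at 9 d and changed by 1.26 ± 0.21 (SE, adjusted p = 0.00452), positive in 5 of 6 cows and -0.04 in cow 460. The regulator SREBF1 did not pass the test. It ranged from 8.95 to 10.29 (median 9.38) at 1 d and from 9.16 to 9.97 (median 9.57) at 9 d, with a change of 0.12 ± 0.16 (SE, adjusted p = 0.722), and none of its 4 probe sets was called.

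Cholesterol synthesis rose along most of the pathway. Of 17 measured genes 15 rose and 0 fell, all 17 changes were positive, and the median was 0.67. TM7SF2, a sterol reductase, ranged from 8.99 to 10.12 (median 9.59) at 1 d and from 10.61 to 11.06 (median 10.75) at 9 d and changed by 1.17 ± 0.13 (SE, adjusted p = 0.000614). NSDHL (0.70 ± 0.08 SE, adjusted p = 0.000617), EBP (0.62 ± 0.07 SE, adjusted p = 0.000669) and ACAT2 (0.59 ± 0.07 SE, adjusted p = 0.00096), 2 late sterol enzymes and the thiolase at the start, also had no overlap between the days. HMGCS1, which makes HMG-CoA in the cytosol, ranged from 11.12 to 13.11 (median 12.26) at 1 d and from 12.94 to 13.47 (median 13.32) at 9 d. SQLE, the squalene epoxidase, ranged from 10.35 to 11.73 (median 11.06) at 1 d and from 11.67 to 12.03 (median 11.73) at 9 d. Both narrowed between the days, from an SD of 0.66 to 0.19 and from 0.45 to 0.13. They changed by 1.08 ± 0.22 (SE, adjusted p = 0.014) and 0.69 ± 0.14 (SE, adjusted p = 0.0114), with positive values in 5 cows and -0.17 and -0.02 in cow 460.

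Fatty acid oxidation and ketogenesis genes rose in 9 of 23 members and fell in 0, with a median of 0.20. The lowest count with 1 cow left out was 6, without cow 439. ACADS and HADH, which act on short acyl chains in the mitochondrial cycle, ranged from 10.11 to 10.46 (median 10.31) at 1 d and from 10.80 to 11.25 (median 11.08) at 9 d, and from 11.52 to 12.14 (median 11.91) at 1 d and from 12.45 to 12.90 (median 12.57) at 9 d. In both genes each 9 d value lay above each 1 d value. The changes were 0.77 ± 0.09 (SE, adjusted p = 0.000802) and 0.76 ± 0.08 (SE, adjusted p = 0.000428). ACAA2, the mitochondrial thiolase, changed by 0.57 ± 0.08 (SE, adjusted p = 0.00268) and DECR1, needed for unsaturated chains, by 0.51 ± 0.08 (SE, adjusted p = 0.00504). HACL1, which cleaves 2-hydroxyacyl-CoA in peroxisomal alpha-oxidation and stood in none of the lists, ranged from 9.49 to 9.78 (median 9.66) at 1 d and from 10.29 to 10.79 (median 10.61) at 9 d, without overlap. It changed by 0.94 ± 0.07 (SE, adjusted p = 7.35e-05), although its other probe set gave -0.06. Targets of PPAR-alpha, the fatty acid sensor of the liver, did not move as one. Of 17, 5 rose and 1 fell, with 3 called in all without cow 439. VNN1, a pantetheinase that releases the vitamin part of coenzyme A precursors, ranged from 8.23 to 10.28 (median 8.96) at 1 d and from 10.95 to 11.62 (median 11.27) at 9 d. It changed by 2.23 ± 0.16 (SE, adjusted p = 7.35e-05), a rise of 4.7-fold with 1.28 to 2.83 in single cows. RETSAT, a retinol saturase, changed by 1.02 ± 0.15 (SE, adjusted p = 0.00261) and FABP1, which carries fatty acids in the cytosol, by 0.47, adjusted p = 0.02. FABP1 lost its call without cow 439 (0.0611), cow 462 (0.0699) or cow 529 (0.0673). The cytochromes CYP4A11 and CYP4A22, named after their values were seen, rose by 0.57 and 0.48. CYP4A11 was no longer called without cow 439 or cow 529, and CYP4A22 without cow 512, 432, 439 or 529. ANGPTL4, a secreted inhibitor of lipoprotein lipase, moved the other way. It ranged from 8.36 to 9.43 (median 8.71) at 1 d and from 7.32 to 8.78 (median 7.98) at 9 d, with overlap, and changed by -0.88 ± 0.14 (SE, adjusted p = 0.0046). PDK4, which spares glucose by blocking pyruvate dehydrogenase, had a change of 0.45 ± 0.13 (SE, adjusted p = 0.0605), just short of the threshold, and 2 of its 3 probe sets passed. For triglyceride synthesis and lipoprotein assembly, 4 of 21 genes rose and 1 fell. These were the acyltransferase AGPAT3 (0.33, named after its value was seen and called in only 1 of the 6 fits that leave out a cow), APOA5 (0.69 ± 0.10 SE, adjusted p = 0.00268), the hepatic lipase LIPC (0.65 ± 0.10 SE, adjusted p = 0.00395) and APOC3 (0.29 ± 0.06 SE, adjusted p = 0.0143), and in the other direction the vesicle coat GTPase SAR1B (-0.59 ± 0.09 SE, adjusted p = 0.00325).

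In glucose production the called genes concerned the entry of propionate and of pyruvate. In the gluconeogenesis list 3 of 22 rose and 1 fell, with a median of 0.05, and without cow 439 or cow 529 there were 2 rises and 0 falls. PCK1, the cytosolic PEP carboxykinase, ranged from 14 to 14.24 (median 14.09) at 1 d and from 13.89 to 14.08 (median 14.06) at 9 d, close to the top of the scale on both days, with a change of -0.07 ± 0.06 (SE, adjusted p = 0.546). Glucose-6-phosphatase (G6PC1) had a change of 0.11 ± 0.12 (SE, adjusted p = 0.679), and its spread narrowed from an SD of 0.40 to 0.06. The members that rose act on propionate. MMUT, the methylmalonyl-CoA mutase, ranged from 12.31 to 12.81 (median 12.54) at 1 d and from 12.93 to 13.13 (median 13) at 9 d, without overlap, and changed by 0.47 ± 0.06 (SE, adjusted p = 0.00145). The propionyl-CoA carboxylase subunits PCCB and PCCA changed by 0.53 ± 0.10 (SE, adjusted p = 0.00875) and 0.53, adjusted p = 0.0214, the latter call being lost without cow 439 (0.0569) or cow 529 (0.066). Pyruvate carboxylase (PC), the entry of lactate and alanine, was the member that fell. It ranged from 10.85 to 12 (median 11.52) at 1 d and from 10.83 to 11.42 (median 11.18) at 9 d and changed by -0.38, adjusted p = 0.0324, a call lost without cow 512 (0.051), cow 439 (0.0928), cow 460 (0.0915), cow 462 (0.104) or cow 529 (0.0504), and another of its 3 probe sets gave 0.005. Of the 15 genes of glycolysis and insulin signalling, 2 rose and 1 fell. PYGL, the liver glycogen phosphorylase, rose by 0.40 (adjusted p = 0.00452) and the pyruvate kinase PKLR by 0.67 (adjusted p = 0.00901), while UGP2, which makes UDP-glucose for glycogen, fell by 0.56 (adjusted p = 0.000685). The insulin receptor INSR had a change of -0.58 ± 0.19 (SE, adjusted p = 0.1).

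In the growth hormone and IGF axis the called genes were binding proteins and a signalling inhibitor. Of 14 genes, 3 rose and 2 fell, and 3 rose and 0 fell without cow 529. IGFALS, the acid-labile subunit that keeps IGF in the blood, ranged from 7.90 to 9.32 (median 8.43) at 1 d and from 8.60 to 10.25 (median 9.30) at 9 d. It rose in each cow, by 0.54 to 1.49, and the change was 0.86 ± 0.11 (SE, adjusted p = 0.00151). IGFBP2 ranged from 10.39 to 11.56 (median 10.93) at 1 d and from 11.34 to 12.09 (median 11.46) at 9 d and changed by 0.60 ± 0.12 (SE, adjusted p = 0.0118), and IGFBP6 changed by 0.88 ± 0.15 (SE, adjusted p = 0.00616). The inhibitor SOCS3, named after its value was seen, fell by 0.47 and was no longer called without cow 439, 462 or 529. IGFBP4 changed by -0.32, adjusted p = 0.018, a call lost without cow 512 (0.0524) or cow 529 (0.0574). IGF1 ranged from 7.65 to 8.61 (median 7.78) at 1 d and from 7.95 to 8.35 (median 8.06) at 9 d, with a change of 0.21 ± 0.10 (SE, adjusted p = 0.264), and GHR, the growth hormone receptor, ranged from 9.17 to 10.65 (median 9.72) at 1 d and from 9.53 to 10.87 (median 9.75) at 9 d, with a change of 0.12 ± 0.08 (SE, adjusted p = 0.457) and 0 of its 11 probe sets called. SOCS2, a feedback inhibitor of that receptor, was at 0.08 ± 0.16 (SE, adjusted p = 0.822). SERPINA6, the corticosteroid-binding globulin, had positive changes in all 6 cows, of 0.08 to 2.61, yet with a change of 1.08 ± 0.30 (SE, adjusted p = 0.0594) it missed the threshold.

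Amino acid breakdown and urea synthesis were higher in some members. Of 29 genes, 6 rose and 1 fell, and 25 had positive changes, with a median of 0.17. The member that fell, GNMT, had the largest change of the list in size, -1.26 ± 0.275 (SE, adjusted p = 0.0193). It was named after its value was seen, and its call was lost without cow 439 (0.0526). OTC, which joins ornithine and carbamoyl phosphate in the urea cycle, ranged from 8.65 to 9.09 (median 8.72) at 1 d and from 9.33 to 10.27 (median 9.79) at 9 d, without overlap, and changed by 0.97 ± 0.09 (SE, adjusted p = 0.000178). HPD, of tyrosine breakdown, changed by 0.74 ± 0.10 (SE, adjusted p = 0.00217), BCKDHA, of branched-chain amino acid oxidation, by 0.52 ± 0.08 (SE, adjusted p = 0.00306) and the proline dehydrogenase PRODH by 0.47 ± 0.08 (SE, adjusted p = 0.0065). The citric acid cycle had 1 of 17 members called, a share of 5.88% against the 4.03% of all genes that rose. This was SDHB at 0.30, adjusted p = 0.0394. Its call was lost without cow 512 (0.118), cow 432 (0.0668), cow 439 (0.111) or cow 529 (0.122). Oxidative phosphorylation had 5 of 53 members lower and 0 higher, with a median of -0.11, and 42 of the 53 changes were negative. The share lower was 9.43%, against 4.72% of all genes that fell and 8.75% of all genes called either way. Without cow 460 the number lower was 8. ATP5MF, an ATP synthase subunit, ranged from 11.99 to 12.25 (median 12.11) at 1 d and from 11.46 to 11.89 (median 11.68) at 9 d, without overlap, and changed by -0.45 ± 0.07 (SE, adjusted p = 0.00312). The complex III subunits UQCRB and UQCR10 changed by -0.42 ± 0.07 (SE, adjusted p = 0.00658) and -0.29 ± 0.06 (SE, adjusted p = 0.0128), and NDUFB7, of complex I, by -0.32 ± 0.06 (SE, adjusted p = 0.0136). The other probe set of UQCRB gave 0.01.

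Xenobiotic metabolism rose broadly. Of 25 genes 15 rose and 0 fell, 23 changes were positive, and the median was 0.46. In a fit that does not pair the arrays by cow 9 rose. CYP2D14, a cytochrome P450 of drug oxidation, ranged from 11.89 to 12.75 (median 12.31) at 1 d and from 12.78 to 13.28 (median 13) at 9 d, without overlap, and changed by 0.71 ± 0.09 (SE, adjusted p = 0.00103). The microsomal epoxide hydrolase EPHX1 changed by 0.82 ± 0.12 (SE, adjusted p = 0.00261), the soluble EPHX2 by 0.55 ± 0.08 (SE, adjusted p = 0.00279) and the flavin monooxygenase FMO1 by 0.42 ± 0.06 (SE, adjusted p = 0.00243). EPHX2 has a second probe set at -0.01. The ethanol-oxidising CYP2E1 rose by 0.33 (adjusted p = 0.0243), a call lost without cow 512 (0.0574), cow 439 (0.0501), cow 462 (0.0729) or cow 529 (0.079). LOC327709 and LOC783879 are loci for which RefSeq lists the glutathione transferase names GSTM1 and, for the second, also GSTM4 as synonyms. Under their locus names they were in none of the lists, although GSTM1 belongs to this one. They rose by 1.59 (adjusted p = 0.000114) and 1.20 (adjusted p = 0.000244), in each of 6 cows, though probe sets for such close copies may share signal. Of 10 genes of bile acid and sterol disposal, 2 rose and 1 fell. CYP11A1, the side-chain cleavage enzyme of steroid synthesis, ranged from 9.28 to 10.92 (median 10.21) at 1 d and from 7.81 to 9.60 (median 8.84) at 9 d and changed by -1.40 ± 0.13 (SE, adjusted p = 0.000184). CYP27A1, a sterol 27-hydroxylase, changed by 0.36 ± 0.07 (SE, adjusted p = 0.00883), and HSD17B2, which inactivates oestradiol, by 0.96, adjusted p = 0.0191, a call lost without cow 529 (0.0639). The sterol exporter ABCG8 had a change of -0.36 ± 0.16 (SE, adjusted p = 0.236).

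Among genes of ribosomes, translation and protein breakdown, few calls held with each cow left out. Of 58 cytosolic ribosomal proteins 7 fell and 0 rose, with a median of -0.10, and 51 changes were negative. None of those 7 kept its call with each cow left out, and the number called ran from 0 without cow 529 to 4 without cow 460, with 1 without cow 512, 2 without cow 432, 3 without cow 439 and 2 without cow 462. The largest was FAU at -0.31, adjusted p = 0.0151, lost without cow 462 (0.0567) or cow 529 (0.0526). The mitochondrial ribosome had 1 of 63 members called, a share of 1.59%, under the 4.03% of all genes that rose. This was MRPL10 at 0.33, adjusted p = 0.0319. Its call was lost without cow 512 (0.0865), cow 432 (0.0693), cow 460 (0.0786), cow 462 (0.103) or cow 529 (0.0878). Of 34 proteasome subunits 2 fell, a share of 5.88%, near the 4.72% of all genes that fell. These were PSMB10 above and PSME1 at -0.39, adjusted p = 0.0162, and the latter lost its call without cow 529 (0.0584). Translation factors and tRNA synthetases had 5 members higher and 7 lower of 52, a count of 12 that dropped to 7 without cow 439, 4 without cow 460 and 6 without cow 462. The synthetases YARS1 and SARS1 changed by -0.50 ± 0.10 (SE, adjusted p = 0.0118) and -0.43 ± 0.08 (SE, adjusted p = 0.0117), without overlap. EIF3M, an initiation factor subunit, changed by 0.44 ± 0.09 (SE, adjusted p = 0.0149) and EIF3E by 0.50, adjusted p = 0.0146, the latter lost without cow 462 (0.0525).

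Other plasma proteins moved in both directions. Of 40 genes of complement, coagulation and serpins 5 rose and 6 fell, with 5 called in all without cow 512 and 7 without cow 439 or cow 460. HRG, a histidine-rich plasma glycoprotein, ranged from 10 to 12.48 (median 11.75) at 1 d and from 13.05 to 13.50 (median 13.16) at 9 d. Its spread shrank from an SD of 0.95 to 0.16, and it changed by 1.68 ± 0.24 (SE, adjusted p = 0.00268). Heparin cofactor SERPIND1 changed by 0.55 ± 0.09 (SE, adjusted p = 0.00452), the plasmin inhibitor SERPINF2 by -0.57 ± 0.07 (SE, adjusted p = 0.00113) and coagulation factor F5 by -0.46 ± 0.07 (SE, adjusted p = 0.00274). The other probe set of SERPINF2 gave 0.12. Of 14 plasma proteins known to be lowered in an acute phase response 2 rose and 1 fell. These were IGFALS above, the retinol carrier RBP4 (0.28, adjusted p = 0.0214) and FETUB (-1.22 ± 0.11 SE, adjusted p = 0.000225), and RBP4 lost its call without cow 512 (0.058), cow 432 (0.0555), cow 439 (0.0623) or cow 529 (0.0646). SERPINA14, the uterine serpin of pregnancy, ranged from 4.12 to 7.42 (median 6.26) at 1 d and from 3.96 to 4.27 (median 4.07) at 9 d. The 9 d values lay within 0.31 and the 1 d values spread over 3.30. The change was -1.83 ± 0.37 (SE, adjusted p = 0.0141), from -3.28 in cow 529 to -0.05 in cow 512. Further large falls without a list were S100A2 (-1.57 ± 0.19 SE, adjusted p = 0.00103), CRIP3 (-1.65 ± 0.26 SE, adjusted p = 0.004), the filamin-binding RFLNA (-1.61 ± 0.16 SE, adjusted p = 0.000267) and the matrix crosslinking oxidase LOXL4 (-1.37 ± 0.12 SE, adjusted p = 0.000178).

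Genes of the matrix and the lysosome were called in shares of 8.33% and 9.76%, near the 8.75% of all genes. Of 36 genes of extracellular matrix and integrins 1 rose and 2 fell. Tenascin (TNC) ranged from 6.16 to 9.13 (median 7.05) at 1 d and from 5.59 to 6.78 (median 5.97) at 9 d and changed by -1.26 ± 0.25 (SE, adjusted p = 0.0129), with 0.05 on its other probe set. ITGAV, an integrin subunit, changed by -0.55 ± 0.09 (SE, adjusted p = 0.00383), and THBS1 at 0.38, adjusted p = 0.0261 lost its call without cow 512 (0.0747), cow 432 (0.0687), cow 439 (0.071) or cow 460 (0.0781). The other probe sets of THBS1 included one at -0.20. Of 41 lysosomal genes 2 rose and 2 fell, CTSC at -1.12 ± 0.17 (SE, adjusted p = 0.00312), SMPD1 at -0.52 ± 0.08 (SE, adjusted p = 0.00317), LAMP1 at 0.29 ± 0.06 (SE, adjusted p = 0.011) and MAN2B1 at 0.41 ± 0.08 (SE, adjusted p = 0.0154). Hepatocyte markers had 1 of 14 higher, CYP2E1 above, and 2 lower, FGB above and HNF4A, a hepatocyte transcription factor, at -0.60 ± 0.11 (SE, adjusted p = 0.0067). None of the markers of endothelium (15), lymphocytes (16 for T and NK, 6 for B lineage) and red cells (7) passed the test with all 6 cows. Of 11 Kupffer cell and macrophage markers 1 fell, a share of 9.09% against the 4.72% of all genes that fell. This was TIMD4 at -0.77, adjusted p = 0.0143, a call lost without cow 529 (0.0524). In the stellate cell and fibroblast list 2 of 13 rose, the smooth muscle actin ACTA2 (0.96 ± 0.18 SE, adjusted p = 0.00883) and TAGLN (0.68, adjusted p = 0.0454), and TAGLN lost its call without cow 512 (0.127), cow 432 (0.0568), cow 439 (0.117), cow 462 (0.115) or cow 529 (0.0594). The mean change of that list was 1.13 in cow 439, 0.53 in cow 512 and -0.52 in cow 529. The trefoil peptide TFF3 (0.44 ± 0.09 SE, adjusted p = 0.0126) was the only 1 of 8 cholangiocyte markers called. The part of these markers in the results was not tested.

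**Figure D3:**
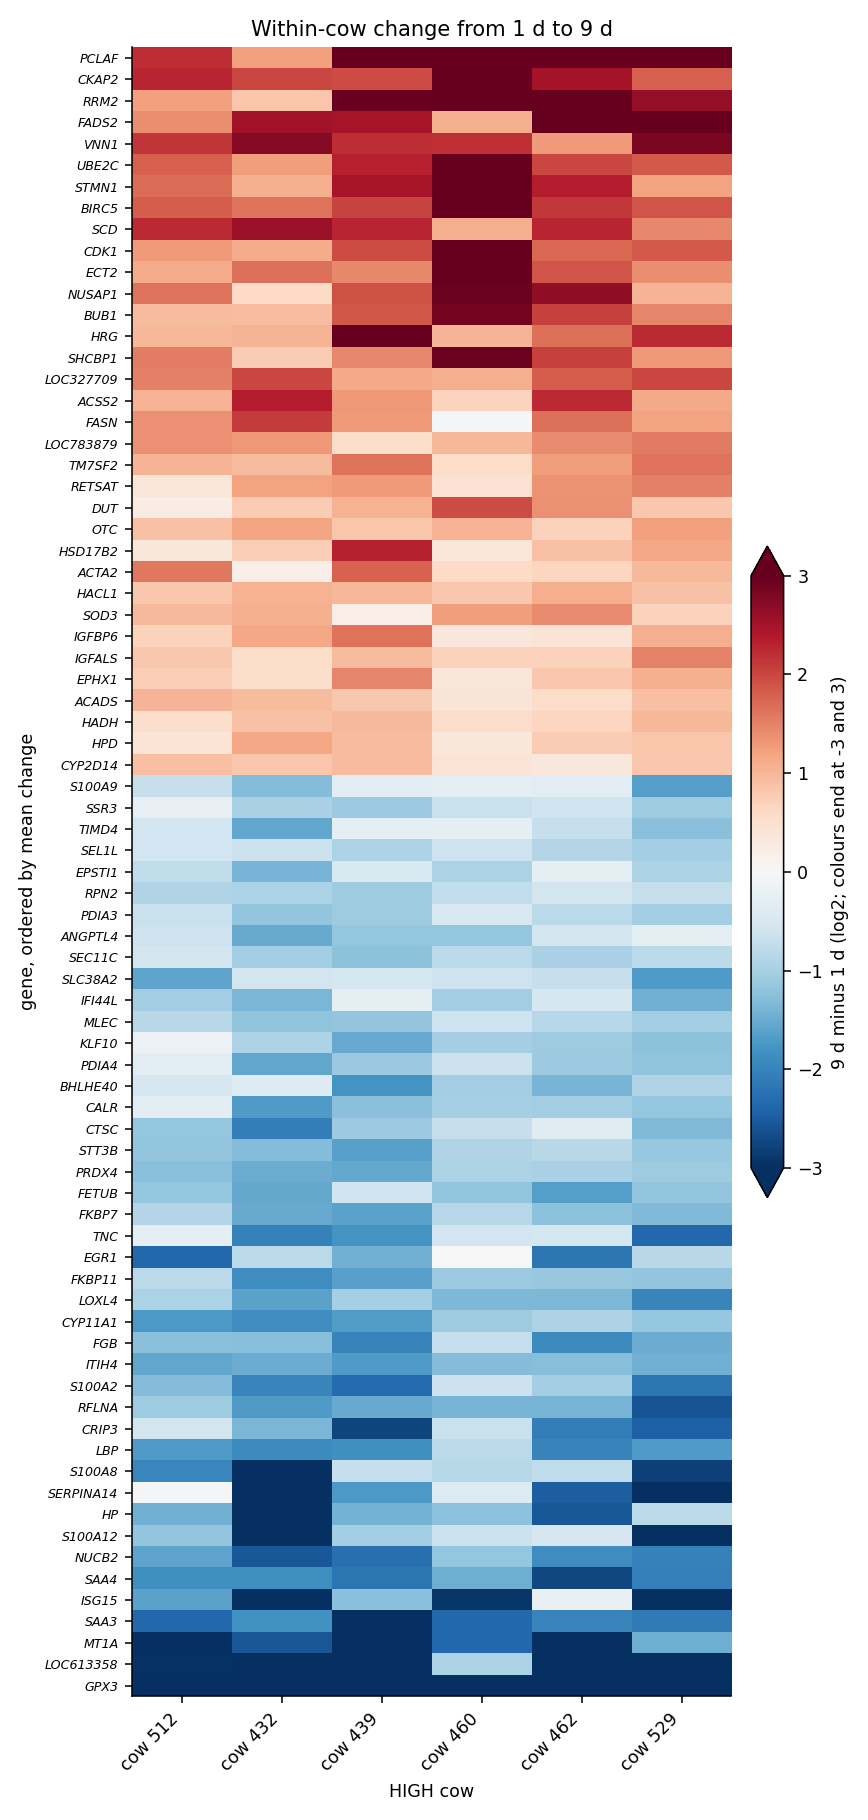
Within-cow change from 1 d to 9 d (colour, log2, ending at -3 and 3) of 77 called genes with a mean change of at least 0.7 in size, 34 rising and 43 falling, named by list or among the 15 largest rises and falls. Columns are the 6 HIGH cows and rows are ordered by mean change. Cow 460 has the darkest reds in the cell division genes, with 4.40 for CKAP2, and paler blues in LBP and LOC613358.

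The 6 cows mostly shared a direction but not an amount. Genes were called from 5 cows and then read in the cow left out. The share with the same sign there was 95.7% of 916 probe sets in cow 529, 91.5% of 1066 in cow 462, 91.1% of 1074 in cow 439, 89.0% of 1179 in cow 512, 88.4% of 1215 in cow 460 and 83.9% of 1287 in cow 432. The same-sign share over all probe sets was not computed for comparison. The left-out cow's change divided by that of the other 5 had a median of 1.03 in cow 529 and 1.01 in cow 439. That median was 0.73 in cow 432, 0.71 in cow 462, 0.68 in cow 512 and 0.58 in cow 460. Cow 460 combined the largest mean rise of the mitosis list, 2.02, with the smallest fall of the acute phase list, -0.43, and the smallest rise of cholesterol synthesis, 0.29. Cow 432 had the largest mean falls of acute phase proteins, -0.91, of endoplasmic reticulum chaperones, -0.96, and of interferon-stimulated genes, -1.27, and the smallest rise of the mitosis list, 0.665. The cow with the smallest change thus differed from list to list.

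The 9 d arrays were also set beside the level before calving. In the model of all 17 HIGH arrays, 893 probe sets differed between 9 d and -8 d (3.72%), 624 higher (2.6%) and 269 lower (1.12%). Over genes 5.52% differed, 4.11% higher and 1.41% lower. This comparison shares the 9 d arrays with the one above. Its count was 288 without cow 462, 464 without cow 439, 487 without cow 460, 540 without cow 529, 807 without cow 432 and 767 without cow 512, a cow without a -8 d array. HP remained 3.36 ± 0.64 (SE) above its -8 d level (adjusted p = 0.00861), its -8 d values being 7.23 to 13.68 with a median of 9.10. GPX3 remained 1.25 above (adjusted p = 0.00849), LOC613358 1.74 above (adjusted p = 0.0369) and CYP11A1 1.53 above (adjusted p = 0.0115). For SAA3, MT1A and ISG15 the differences from -8 d were 0.52, 1.17 and -0.03, with adjusted p of 0.389, 0.101 and 0.98. Of the acute phase list 2 of 25 genes were higher at 9 d than at -8 d, of the chaperones 4 of 16 and of the interferon list 0 of 21. Relative to its own -8 d array, the chaperone mean of the 5 cows was 0.996 ± 0.243 (SD) higher at 1 d and still 0.26 ± 0.08 higher at 9 d, in 5 of 5 cows.

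Cell division and cholesterol synthesis at 9 d exceeded the level before calving. In the mitosis list 20 of 28 genes were higher than at -8 d and 0 lower, CDK1 by 1.76 (adjusted p = 0.000304) and RRM2, of the replication list, by 2.18 (adjusted p = 0.00174). The list's mean differed from the -8 d value by -0.105 ± 0.088 (SD, n = 5) at 1 d and by 1.06 ± 0.58 at 9 d. In cholesterol synthesis 10 of 17 were higher and 0 lower, SQLE by 1.28 (adjusted p = 0.000367) and HMGCS1 by 1.34 (adjusted p = 0.00286). FADS2 and SCD had differences of -0.64 and -0.69 from -8 d, with adjusted p of 0.325 and 0.134, while FASN was 1.06 higher (adjusted p = 0.0109) and VNN1 0.61 higher (adjusted p = 0.0398). Xenobiotic metabolism had 0 of 25 genes higher and 1 lower than at -8 d. In gluconeogenesis 6 of 22 were higher, among them PC by 1.17 (adjusted p = 0.000135). IGFBP2 was 1.45 higher (adjusted p = 0.000304), whereas IGFALS and GHR were lower by 0.77 and 0.65 (adjusted p = 0.0226 and 0.0381). CGN1, a conglutinin gene, was at -1.96 (adjusted p = 0.00264), and between 1 d and 9 d its within-cow changes ran -1.27 to 1.39. The haemoglobin gene HBB, an erythroid marker, was -2.20 from -8 d to 9 d (adjusted p = 0.0055), with array values of 5.72 to 9.68 at -8 d, and its part in this comparison was not tested.

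**Figure D4:**
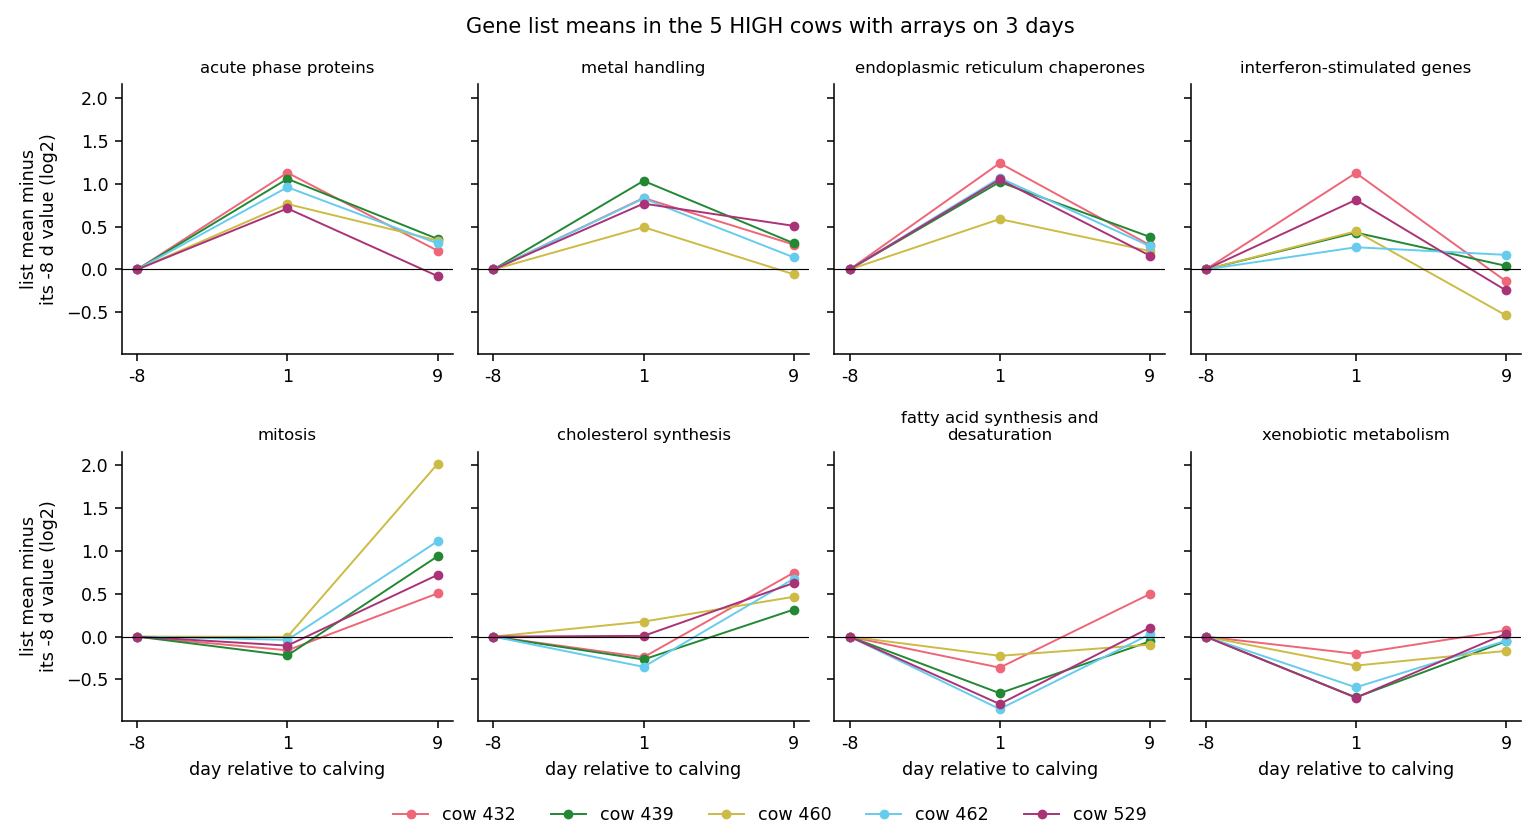
Mean level of 8 gene lists in the 5 HIGH cows with arrays on 3 days, as the difference from the same cow's -8 d array (vertical axis, log2), against day relative to calving (horizontal axis). Each line is 1 cow. Acute phase, metal, chaperone and interferon lists are above 0 in 5 of 5 cows at 1 d, and the mitosis list is above 0 in 5 of 5 at 9 d, by 0.51 to 2.02.

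The change from 1 d to 9 d was then set against that of the 4 CON cows, which share no array with the HIGH cows. In the CON cows 391 probe sets were called (1.63%), 204 higher (0.849%) and 187 lower (0.779%). Over genes this was 2.26%, 1.04% higher and 1.22% lower. The test of the difference in change between 6 HIGH and 4 CON cows called 0 of 24016 probe sets (0%), with a lowest adjusted p of 0.415, and 1205 probe sets had an unadjusted p under 0.05. The SE of this difference had a median of 0.140, so a missed threshold does not show that the diets acted alike. Of the probe sets called in the HIGH cows, 94.6% had the same sign in the CON cows. The same share over all probe sets was not computed, so this figure has no background to be read against. The mean change of the mitosis list was 1.11 ± 0.49 (SD, n = 6) in HIGH and 1.18 ± 0.76 (n = 4) in CON cows. That of the chaperones was -0.67 ± 0.26 and -0.68 ± 0.19, that of interferon-stimulated genes -0.74 ± 0.45 and -0.50 ± 0.68, and that of acute phase proteins -0.70 ± 0.16 and -0.66 ± 0.10. Fatty acid oxidation had 0.28 ± 0.15 in HIGH and 0.05 ± 0.20 in CON cows. Triglyceride synthesis and lipoprotein assembly had 0.14 ± 0.12 and -0.06 ± 0.23. Both lists overlapped between the groups. Of the 23 oxidation genes 5 had an unadjusted p under 0.05 for the difference, and of the 21 of the second list 4. These were the highest such counts of all lists, and no other list had more than 3. Over all probe sets the count was 1205 of 24016, close to what a threshold of 0.05 gives by chance. Whether the highest counts among so many lists exceed chance was not tested.

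The 10 genes with the smallest p for a difference in change were FRY, IL1R2, SLC5A1, APOA4, STARD13, DIS3, KIF5C, CDV3, TEDC2 and IL2RA, with unadjusted p from 6.92e-05 to 0.00231. None passed after adjustment, as none of 24016 did. IL1R2, a decoy receptor for interleukin-1, had changes of -0.88 ± 0.18 (SE) in HIGH and 0.73 ± 0.24 in CON cows. The sodium-glucose transporter SLC5A1 had changes of -0.62 and 0.36, and APOA4, an apolipoprotein of triglyceride-rich particles, of 0.56 and -0.55. ACADS had changes of 0.77 and 0.31 (unadjusted p = 0.00378) and APOA5 of 0.69 and -0.03 (unadjusted p = 0.00373). FADS2, GPX3 and CDK1 had changes of 1.91, -3.53 and 2.0 in the CON cows.

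**Figure D5:**
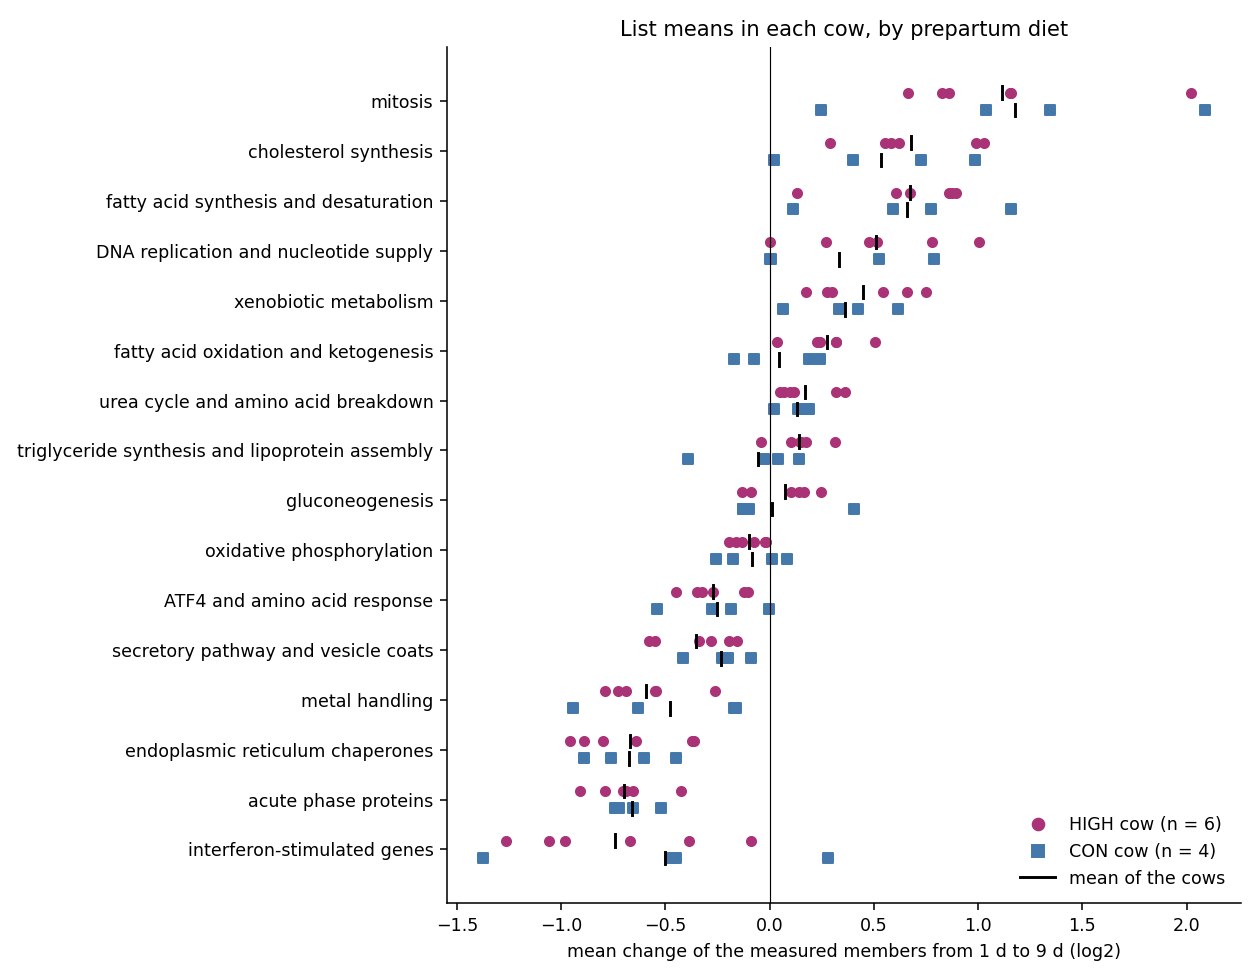
Mean change of the measured members of 16 gene lists from 1 d to 9 d (horizontal axis, log2) in each of 6 HIGH cows (circles) and 4 CON cows (squares), with black bars at the mean of the cows. The 2 groups overlap in each list shown, and the mitosis means are 1.11 and 1.18.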

How the data were processed

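RNA of 32 liver biopsies was hybridised to Affymetrix bovine arrays. The authors deposited log2 values made with Affymetrix Expression Console 1.1 and RMA, per the submitters' processing notes. RMA sets all arrays to 1 distribution (array medians 5.87 to 5.94), so a change of most genes one way would not show. The number of arrays limits the precision. After 112 control probe sets were left out, 24016 were tested. By the platform annotation 13292 had 1 gene symbol, 86 several and 10638 none, and the last 2 kinds are unnamed here. A gene was read from its probe set with the highest mean over 32 arrays.

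The 6 HIGH cows were compared in limma 3.58.1 (R 4.3.3) with cow as a block and a mean-variance trend, adjusting p by the Benjamini-Hochberg method, threshold 0.05. Levels against -8 d came from 17 HIGH arrays with the same block. The diets were compared on within-cow changes of 6 HIGH and 4 CON cows. Arrays are paired by the cow number in the labels. Deviations from the group means of the same cow correlated at 0.24 to 0.45, and those of different cows at -0.21 to 0.16. Cows are separate animals, each sampled once a day.

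Named genes were the 15 largest rises and falls with 1 sign in 6 cows and a set of key genes. Added were up to 4 genes of smallest p per list and the 10 of smallest p between diets. The 10 unlisted called genes with the largest moderated statistic were named too. The key genes, members and lists were chosen with earlier results of these data known. Scripts were tested on simulated data. Alternatives were the fit without the cow block, other sets of arrays, no trend, array weights, a filter on dim probe sets, median centring, other probe sets and leaving out each cow. No genome sequence was used here.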

Additional observations from a re-analysis of the deposited data

Results flagged for a closer look

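Within-cow changes of 204 named genes and the means of 41 lists were examined for 1 cow standing far from the other 5, a rule that chance meets in about 1 in 20 groups, and 12 met it, about as many as chance gives, so single cases may be no more than that. Cow 460 had the highest change in 7 of these. In 3 cell division genes its rise exceeded the others. CKAP2 changed by 4.40 against 1.79 to 2.49 in the other cows, BIRC5 by 3.32 against 1.64 to 2.11, and ECT2 by 3.34 against 1.12 to 1.88. The mean of the mitosis list was 2.02 against 0.665 to 1.16. In 3 genes that fell, cow 460 fell least. LOC613358 changed by -0.94 against -3.54 to -2.96, LBP by -0.82 against -2.01 to -1.70 and UQCRB by -0.07 against -0.61 to -0.42. Cow 439 had the deepest fall of SAA3, -3.88 against -2.36 to -1.82, and the lowest change of MRPL10, 0.04 against 0.33 to 0.49. Cow 432 stood apart in HNF4A, at -0.03 against -0.81 to -0.60, and in RPLP2, at -0.52 against -0.26 to -0.13. MRPL14, which was not called, changed by -0.11 in cow 462 and by 0.36 to 0.59 in the others.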

How the results depend on the processing

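The 1523 probe sets called from 1 d to 9 d became 894 without the cow block (443 higher, 451 lower), of which 860 were shared. The other fits gave 1450 to 2195, and leaving out 1 cow gave 916 to 1287, the lowest without cow 529 (450 higher, 466 lower). Against -8 d the 893 became 499 without the cow block, and 288 to 807 with 1 cow left out. Between diets 0 were called in limma in each of these fits, with 685 (dim probe sets left out) to 1669 at an unadjusted p under 0.05. Of 148 named genes called, 123 kept call and sign with each cow left out, 121 without the block, 138 with 32 arrays and a random block, 145 with 17 arrays, 141 without the trend, 147 with array weights and 148 after centring. Removing the block took the growth hormone and IGF axis to 1 higher and 2 lower, amino acid breakdown and urea synthesis to 4 higher and 0 lower, the citric acid cycle to 0, mitochondrial ribosomal proteins to 2 higher, hepatocyte markers to 0 higher and 1 lower, Kupffer cell markers to 0, neutrophil markers to 0 higher and 2 lower, stellate cell markers to 1, the ATF4 list to 3 lower, complement and coagulation to 3 higher and 2 lower, cytosolic ribosomal proteins to 2 lower, translation to 2 higher and 4 lower, and immediate early genes to 0 higher and 2 lower. Called genes with a probe set of the opposite sign were CHAC1 (0.15), PC (0.005), UQCRB (0.01), EPHX2 (-0.0117), HSPA1A (-0.25 and -0.0217), RPL26 (0.0083), SERPINF2 (0.12), TNC (0.0517), THBS1 (-0.20), FGB (0.0533) and HACL1 (-0.0567). The cause was not tested. Signal over background was not given per probe set, so dim genes cannot be told from absent ones.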

Other observations

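Some genes varied between cows more than between days. The standard deviation of the within-cow change had a median of 0.211 over all genes, and the 20 genes with the widest spread, chosen after their values were seen, included 7 that were called. COL1A2, a chain of type I collagen, had the widest, 1.84, with changes from -2.64 to 2.85 and a mean of -0.24 (adjusted p = 0.836). The matrix proteins LUM and MGP spread over -1.86 to 1.44 and -1.74 to 1.70. THRSP, a regulator of lipid synthesis, had a mean change of 1.35 and missed the threshold (adjusted p = 0.0895), with -0.76 to 3.11 in single cows. CYP7A1, the rate-limiting enzyme of bile acid synthesis, ranged from -0.76 to 2.49. The stress-induced genes DDIT4 and GADD45B ranged from -0.95 to 2.78 and from -1.90 to 1.96. The mean level of GADD45B was 9.81 at -8 d, 7.75 at 1 d and 7.84 at 9 d. The chemokine CXCL10, itself induced by interferon, ranged from -1.95 to 1.33, with 3 cows up and 3 down. MYH1, a myosin heavy chain of skeletal muscle, had a highest change of 2.93 with a mean level of 3.73 at 1 d.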
